A study of Mus musculus with 8 samples.

Results

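Glutathione transferases join the tripeptide glutathione to electrophilic molecules. The 10 genes described here, Gstp1, Gstp2, Gsta4, Gstm1, Gstm2, Gstm5, Gsto1, Gstt1, Gstk1 and Mgst1, were taken by symbol from the 47069 genes of the count tables, and all 10 were found. Levels against unedited cells were in view when they were listed, so those differences are given as a description. Poly-A RNA was sequenced from C57BL/6 mouse embryonic stem (ES) cells of 4 groups with 2 libraries each. The DKO group lacked both Pcgf3 and Pcgf5, the Pcgf5KO and Pcgf3KO groups lacked 1 of these genes, and the WT group was unedited. The knockouts were made with Cas9. Cells of every group grew in serum with leukemia inhibitory factor and beta-mercaptoethanol, a reducing agent, on fibroblast feeders inactivated with mitomycin-C. The labels do not say whether the 2 libraries of a group came from separate cultures or clones, so p-values measure only the spread between these libraries, which may be technical.

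Most glutathione transferases are soluble enzymes grouped into classes by sequence, and a second, membrane-bound family (MAPEG) includes the microsomal enzymes. They clear lipid peroxidation products and reactive foreign compounds, and several are induced through NRF2, a transcription factor that responds to oxidants and electrophiles. Pcgf3 and Pcgf5 encode subunits of variant forms of Polycomb repressive complex 1, an enzyme that attaches ubiquitin to histone H2A at silent genes.

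The 7 libraries whose tables list every gene held between 12652616 and 19923964 counts. The table of WT replicate 1 used here breaks off after 8093 genes and covers only Mgst1 among the 10, so WT is 1 library for the rest and has no replicate check. The DKO libraries differed most from each other, with a chi-square per gene of 20, against 1.94 between the Pcgf5KO and 3.51 between the Pcgf3KO libraries. As a check of the labels, Pcgf3 had 86.6 and 67.2 CPM (counts scaled to library size) in DKO, 92.3 and 94.1 in Pcgf5KO, 66.1 and 60.5 in Pcgf3KO and 110 in WT. Pcgf5 had 13.5 and 13.9 CPM in DKO, 12.3 and 9.06 in Pcgf5KO, 17.3 and 17.4 in Pcgf3KO and 20.7 in WT. Both still had reads where deleted, and both were also below WT in the single knockout that did not target them. Against WT, edgeR called Pcgf5 lower in Pcgf5KO (adjusted p = 0.0292) and Pcgf3 lower in Pcgf3KO (adjusted p = 0.021), and called neither in DKO (adjusted p = 0.0899 for Pcgf3 and 0.114 for Pcgf5, edgeR). Counts over whole genes thus check the DKO label only in part. Summed CPM of the ES cell markers Pou5f1, Nanog and Sox2 lay between 662 and 798 in all 7 libraries. They are 3 of 10 listed ES cell markers, whose sum lay between 2993 and 3739 CPM. Of the 10, edgeR called 1 higher in DKO, 3 in Pcgf5KO and 1 in Pcgf3KO against WT, and 0 lower. Of all genes, 3.22% were called in DKO, 2.99% in Pcgf5KO and 2.36% in Pcgf3KO. In DKO against Pcgf5KO, 1 of the 10 rose and 2 fell, where 2.28% of all genes were called.

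Levels of the 10 genes spanned a wide range. Per kilobase of transcript, the median over the 7 libraries was 297.5 CPM per kb for Gsta4, 149.8 for Gsto1, 94.5 for Gstm1, 50.9 for Gstp1, 40.8 for Gstm2 and 10.96 for Gstp2. The other 4 were rare, with medians of 3.66 CPM per kb for Gstt1, 3.31 for Gstk1, 3.19 for Gstm5 and 1.38 for Mgst1. Over the libraries the ranges of Gsta4 and Gsto1 overlapped, as did those of Gstp1 and Gstm2 and those of Gstp2, Gstt1, Gstk1 and Gstm5, so these neighbours in the order were not separated by their spread. Gstm1 and Mgst1 overlapped with no neighbour. All 10 passed the filter on low counts.

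**Figure D1:**
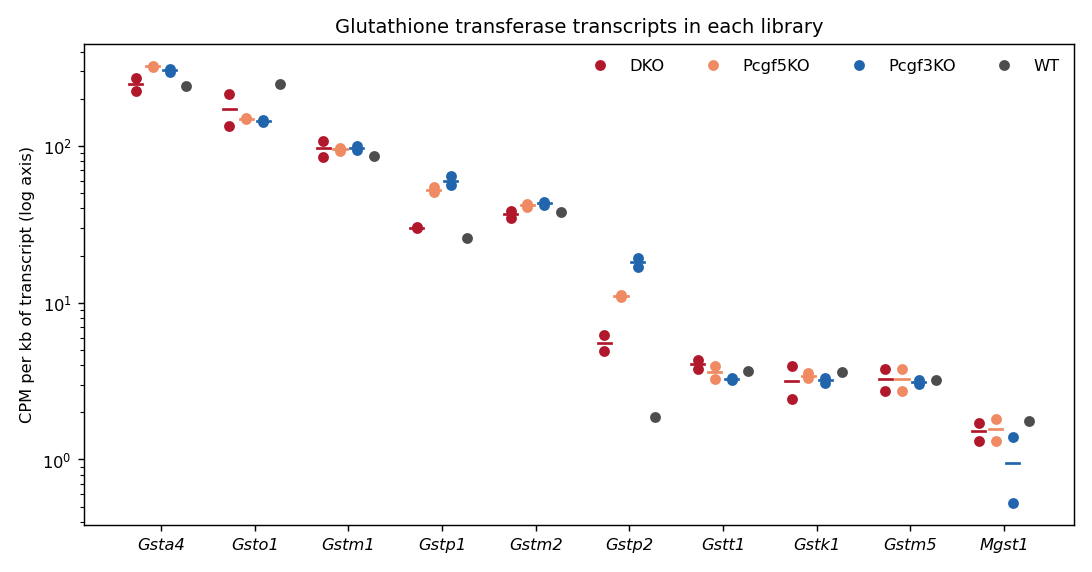
CPM per kilobase of transcript (log axis) for each of the 10 genes, one point per library, with a short line at the mean where a group has 2 libraries. Gstp2 spreads most over the groups, with its DKO libraries between the single knockouts and WT, and the DKO libraries of Gstp1 lie close to WT.

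The pi class genes Gstp1 and Gstp2 lie side by side on chromosome 19 (mm10, minus strand). Gstp1 spans 4035407 to 4037921 and Gstp2 spans 4040285 to 4042236. Their longest protein-coding transcripts were identical at 752 of 786 aligned bases (95.7%), and 62.3% of the 50-base stretches of the Gstp1 transcript and 72.6% of those of Gstp2 also occur in another gene, mainly in each other or in the pseudogene Gstp-ps. How the authors' counting treated reads that match both is not given in the sources used here. The division of counts between the pair, and their levels, are therefore uncertain. The windows around their starts (250 bases before and 50 after, RefSeq, GRCm38.p6, minus strand) are shown because the pair moved together in the counts, beside the same window of the third pi class gene, Gstp3, which was nearly silent. Capitals mark matches on either strand to TGANNNNGC. This is a loose pattern for the core of the antioxidant response element, which NRF2 binds together with small Maf proteins. The windows lie at chr19:4037863-4038162 for Gstp1, chr19:4042172-4042471 for Gstp2 and chr19:4059398-4059697 for Gstp3.
Gstp1: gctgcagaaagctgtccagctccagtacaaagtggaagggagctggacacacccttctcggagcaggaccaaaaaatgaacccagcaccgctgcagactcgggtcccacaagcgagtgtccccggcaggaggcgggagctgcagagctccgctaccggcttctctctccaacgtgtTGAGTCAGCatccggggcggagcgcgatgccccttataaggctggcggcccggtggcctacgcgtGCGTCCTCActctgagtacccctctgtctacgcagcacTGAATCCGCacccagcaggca
Gstp2: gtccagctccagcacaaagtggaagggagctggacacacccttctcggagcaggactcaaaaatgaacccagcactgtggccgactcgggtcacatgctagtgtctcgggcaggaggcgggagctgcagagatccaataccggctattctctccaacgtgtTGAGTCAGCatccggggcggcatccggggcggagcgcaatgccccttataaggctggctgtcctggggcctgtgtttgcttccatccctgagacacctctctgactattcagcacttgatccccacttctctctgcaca
Gstp3: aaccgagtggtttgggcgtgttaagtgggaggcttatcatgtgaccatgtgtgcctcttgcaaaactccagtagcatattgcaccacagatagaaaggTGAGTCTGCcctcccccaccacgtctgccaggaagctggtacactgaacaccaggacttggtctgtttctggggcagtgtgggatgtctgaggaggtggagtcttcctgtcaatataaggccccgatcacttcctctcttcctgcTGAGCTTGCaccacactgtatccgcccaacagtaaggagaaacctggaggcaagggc

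The Gstp1 and Gstp2 windows were identical at 241 of 284 aligned bases (84.9%). Both hold TGAGTCAGC, which begins 74 bases before the start of Gstp1 and 89 bases before that of Gstp2. This stretch also contains TGAGTCA, a match to TGANTCA, the pattern of AP-1 sites, so the 2 patterns overlap there. Searched on both strands, TGANNNNGC occurred in 41.3% and TGANTCA in 7.81% of all 32851 promoter windows of that length. Of the 9 genes with a window in the table (not Gsta4), 5 held TGANNNNGC and 3 held TGANTCA. Gstp1 had 20 CpG sites in its window and Gstp2 had 12, against a median of 7 over all windows. These matches describe the letters only.

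Gstp1, the main pi class enzyme in most mouse tissues, had 24.66 and 24.96 CPM in DKO, 44.7 and 41.8 in Pcgf5KO, 46.2 and 52.9 in Pcgf3KO and 21.2 in WT. Both single knockouts were high in both libraries, DKO was low and close to WT, and the DKO libraries overlapped with neither single knockout. Gstp2 had 4.95 and 3.90 CPM in DKO, 8.996 and 8.734 in Pcgf5KO, 13.5 and 15.4 in Pcgf3KO and 1.48 in WT. For Gstp2 no 2 groups overlapped: Pcgf3KO was highest, then Pcgf5KO, then DKO, with WT lowest on 26 counts. Group means were 4.43 ± 0.742 CPM in DKO, 8.87 ± 0.185 in Pcgf5KO and 14.4 ± 1.40 in Pcgf3KO for Gstp2 (SD, n = 2 each). In bulk RNA, fewer cells that make a transcript and less of it per cell cannot be told apart.

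Differences between groups were fitted over all 15669 genes with edgeR's quasi-likelihood test, and genes with a p of at most 0.05 after Benjamini-Hochberg adjustment were called. Against WT, 1 of the 10 genes was called in DKO, where 3.22% of all tested genes were called. In Pcgf5KO it was 2 of 10, against 2.99% of all genes, and in Pcgf3KO 2 of 10, against 2.36%. All these calls were Gstp1 and Gstp2 and were higher than WT, and since these contrasts were in view when the genes were listed, nothing is read from the counts. The log2 fold change of Gstp2 was 1.57 ± 0.29 in DKO, 2.58 ± 0.28 in Pcgf5KO and 3.28 ± 0.27 in Pcgf3KO (SE). On the linear scale this is 2.98-fold in DKO, 5.97-fold in Pcgf5KO and 9.71-fold in Pcgf3KO. Gstp1 was 0.23 ± 0.13 above WT in DKO, which was not called, 1.03 ± 0.14 in Pcgf5KO and 1.22 ± 0.14 in Pcgf3KO. The Gstp1 call in Pcgf5KO was lost when either Pcgf5KO replicate was left out. The Gstp2 call in DKO was lost without any 1 of the 4 single knockout libraries and was present when either DKO library was left out. Without DKO replicate 1, 3 of the 10 were called in DKO, 4 in Pcgf5KO and 4 in Pcgf3KO, where 16.2% of all genes were called in DKO, 26.8% in Pcgf5KO and 20.6% in Pcgf3KO. Without DKO replicate 2, 2 were called in DKO, 4 in Pcgf5KO and 4 in Pcgf3KO, where the shares of all genes were 34.5% in DKO, 26.4% in Pcgf5KO and 20.2% in Pcgf3KO.

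**Figure D2:**
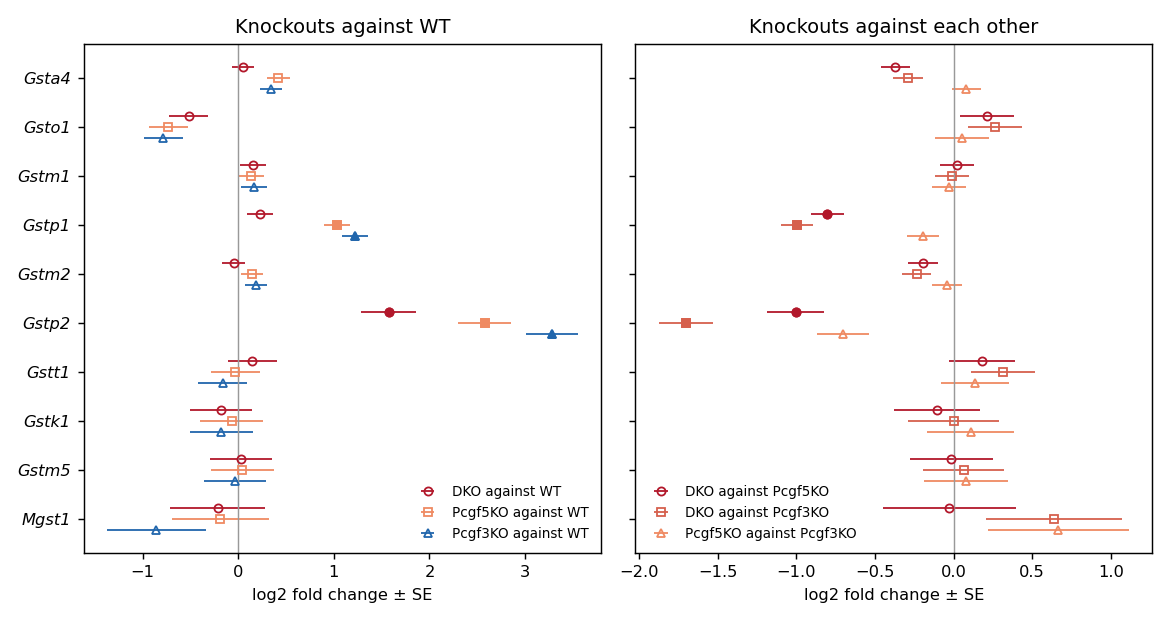
Log2 fold change ± SE of the 10 genes in each knockout against WT (left) and between the knockouts (right), with filled symbols for genes called at an adjusted p of at most 0.05. Filled symbols appear only in the Gstp1 and Gstp2 lines of both panels, to the right of 0 against WT and to the left of 0 for DKO against the single knockouts.

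How do cells without both proteins differ from cells without 1? The values compared are those of the knockout libraries that were in view, against WT, when the genes were listed, so the differences of the 10 genes are again given as a description, with no p. DKO against Pcgf5KO called 2 of 10 genes, where 2.28% of all genes were called, and DKO against Pcgf3KO called 2 of 10, against 1.74%. In both, the genes were Gstp1 and Gstp2, and both were lower in DKO, so nothing is read from the counts. The log2 difference of Gstp1 in DKO was −0.80 ± 0.11 against Pcgf5KO and −0.996 ± 0.104 against Pcgf3KO (SE). For Gstp2 it was −1.004 ± 0.180 against Pcgf5KO and −1.71 ± 0.17 against Pcgf3KO. In each contrast both DKO libraries lay below both single knockout libraries.

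The fit has 3 residual degrees of freedom, and these calls were not kept in every fit that left out 1 library. Against Pcgf5KO, the calls of Gstp1 and Gstp2 were both lost when any 1 of the 4 Pcgf5KO or Pcgf3KO libraries was left out, where at most 0.0769% of all genes were called, while the log2 fold changes stayed between −0.85 and −0.75 for Gstp1 and between −1.18 and −0.84 for Gstp2. Against Pcgf3KO, both were called in 6 of 7 such fits and lost without Pcgf3KO replicate 2, where 0.0448% of all genes were called. Leaving out a DKO library, the pair farthest apart, raised the calls over all genes. Without DKO replicate 1, 5 of the 10 were called against Pcgf5KO and 3 against Pcgf3KO, where 16% of all genes were called against Pcgf5KO and 12.6% against Pcgf3KO. Without DKO replicate 2, 5 were called in each contrast, where the shares were 42.3% against Pcgf5KO and 35.8% against Pcgf3KO.

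Pcgf5KO against Pcgf3KO called 0 of the 10 genes with edgeR and 0 with DESeq2, where edgeR called 0.14% of all genes and DESeq2 0.504%. Gstp2 had a log2 fold change of −0.70 ± 0.16, with both Pcgf5KO libraries below both Pcgf3KO libraries. Gstp1 stood at −0.19 ± 0.10, again without overlap. Gstp2 was called in 2 of 7 fits that left out a library, those without DKO replicate 1, where 12.4% of all genes were called, and without DKO replicate 2, where 12.2% were called.

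The interaction compares the DKO change with the sum of the single knockout changes on the log2 scale. It was called for 3 of the 10 genes, where 3.79% of all genes were called, and it is a description here because it uses the contrasts against WT. The value was −4.28 ± 0.32 for Gstp2 and −2.03 ± 0.17 for Gstp1, whose DKO changes were far below the sum of the single changes. It was −0.71 ± 0.15 for Gsta4.

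Since reads of Gstp1 and Gstp2 may be exchanged, their counts were also added into 1 feature. Any reads left uncounted because they match both would be missing from it too. The sum had 29.6 and 28.9 CPM in DKO, 53.7 and 50.6 in Pcgf5KO, 59.6 and 68.3 in Pcgf3KO and 22.7 in WT. It kept the pattern of high single knockouts without overlap with DKO. The log2 difference of the sum in DKO was −0.84 ± 0.10 against Pcgf5KO and −1.13 ± 0.10 against Pcgf3KO, both called, and −0.29 ± 0.10 in Pcgf5KO against Pcgf3KO, which was not called. Against WT it was 0.37 ± 0.13 higher in DKO, which was not called, 1.20 ± 0.13 higher in Pcgf5KO and 1.496 ± 0.133 higher in Pcgf3KO, which were both called.

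The share of Gstp2 in these summed counts was 16.7% and 13.5% in DKO, 16.7% and 17.3% in Pcgf5KO, 22.6% and 22.6% in Pcgf3KO and 6.53% in WT. The 95% exact binomial interval of WT ran between 4.31% and 9.43%, below that of every knockout library, the lowest of which began at 10.9%. The intervals of both Pcgf3KO libraries began at 20.2% or above. These intervals cover counting error only.

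**Figure D3:**
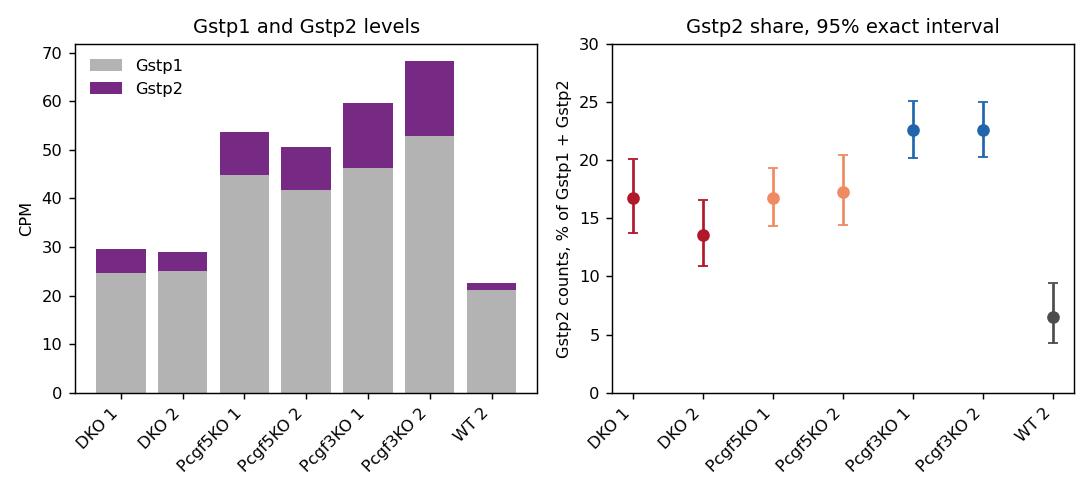
Left: CPM of Gstp1 (grey) and Gstp2 (purple) stacked for each library. Right: Gstp2 as a percentage of Gstp1 plus Gstp2 counts, with 95% exact binomial intervals. The WT share is 6.53%, the DKO and Pcgf5KO shares lie between 13.5% and 17.3%, and both Pcgf3KO shares are 22.6%.

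Genes beside the pair were tested too, where edgeR called 3.22% of all genes in DKO, 2.99% in Pcgf5KO and 2.36% in Pcgf3KO against WT. At such shares a count of 0 among few genes is not informative. Of the genes within 100 kb of Gstp1 or Gstp2, 11 were tested, and edgeR and DESeq2 each called 0 of them in DKO, in Pcgf5KO and in Pcgf3KO against WT, with 0 in DKO, 2 in Pcgf5KO and 3 in Pcgf3KO at an unadjusted p under 0.05. DESeq2 gave no adjusted p for 1 of the 11 in DKO, 3 in Pcgf5KO and 3 in Pcgf3KO. The nearest tested gene on the Gstp1 side, Ndufv1, a subunit of respiratory complex I, stood at 0.07 ± 0.13 in DKO, 0.36 ± 0.14 in Pcgf5KO and 0.16 ± 0.13 in Pcgf3KO (log2 against WT). The rare transcript of Cabp4, a calcium-binding protein, stood at 0.92 ± 0.58 in DKO, 1.34 ± 0.57 in Pcgf5KO and 1.35 ± 0.56 in Pcgf3KO, which were not called. Gstp3 had between 2 and 9 counts per library and was not tested. DKO against Pcgf5KO and against Pcgf3KO also called 0 of the 11 with either tool. There edgeR called 2.28% of all genes against Pcgf5KO and 1.74% against Pcgf3KO. In each, 1 of the 11 had an unadjusted p under 0.05. DESeq2 gave no adjusted p for 4 of the 11 against Pcgf5KO and 3 against Pcgf3KO.

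**Figure D4:**
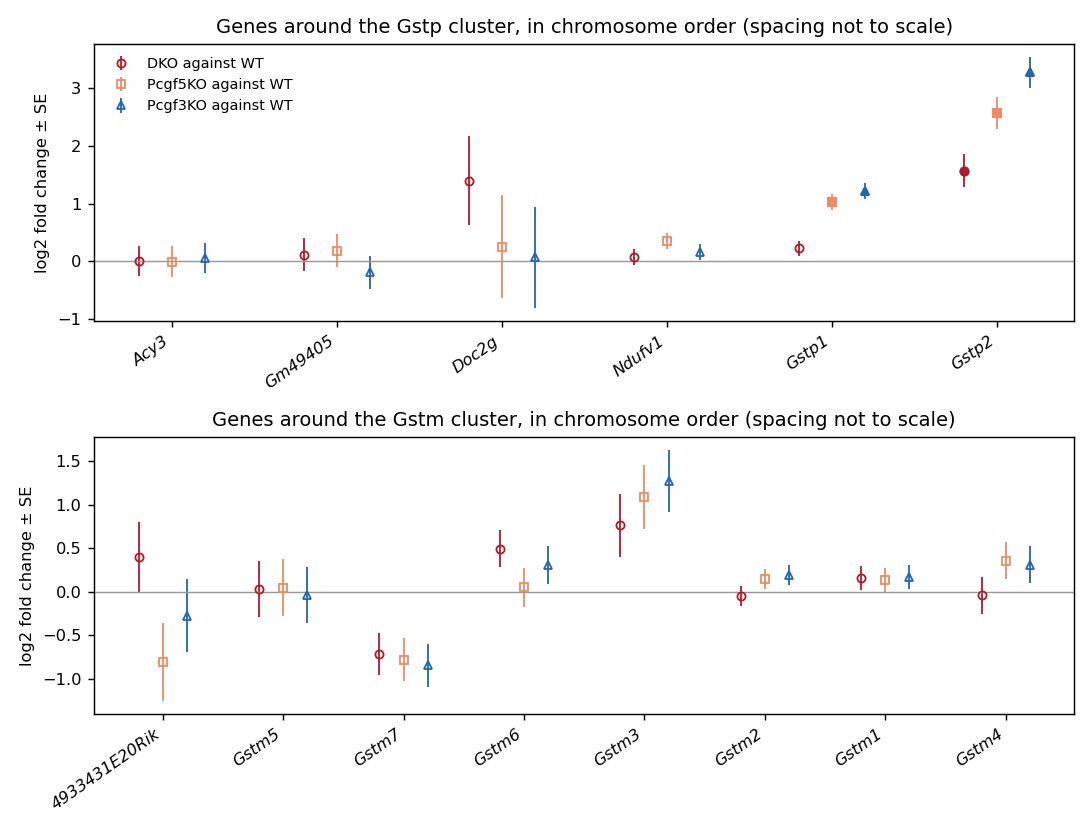
Log2 fold change ± SE against WT of tested genes within 50 kb of Gstp1 and Gstp2 (top) and of Gstm1, Gstm2 and Gstm5 (bottom), in chromosome order and not to scale, with filled symbols for called genes. Gstp1 and Gstp2 hold the only filled symbols.

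The alpha class gene Gsta4 (chromosome 9, 78191966 to 78209348, mm10), whose product conjugates the lipid peroxidation product 4-hydroxynonenal, was the most abundant of the 10. It had 220.5 and 267 CPM in DKO, 318 and 313 in Pcgf5KO, 291 and 306 in Pcgf3KO and 236 in WT. DKO was lower than both single knockouts in both libraries and spanned the WT value. The log2 difference in DKO was −0.37 ± 0.09 against Pcgf5KO and −0.29 ± 0.09 against Pcgf3KO, neither of them called. Against WT it stood at 0.05 ± 0.11 in DKO, 0.42 ± 0.12 in Pcgf5KO and 0.34 ± 0.12 in Pcgf3KO, none of them called. None of its transcript's 50-base stretches occur in another gene.

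The mu class genes Gstm1, Gstm2 and Gstm5 lie in a cluster on chromosome 3. Gstm1, a major liver enzyme of this class, had 110 and 139 CPM in DKO, 125 and 120.3 in Pcgf5KO, 122 and 129 in Pcgf3KO and 112 in WT. The DKO libraries were the lowest and the highest of all, so the groups overlapped. Gstm2 had 37.2 and 40.7 CPM in DKO, 43.4 and 45.7 in Pcgf5KO, 47.2 and 44.6 in Pcgf3KO and 40.3 in WT. Its DKO libraries lay below both single knockouts, with log2 differences of −0.19 ± 0.10 against Pcgf5KO and −0.24 ± 0.09 against Pcgf3KO that were not called. Gstm5 had 2.58 and 3.56 CPM in DKO, 3.55 and 2.59 in Pcgf5KO, 2.87 and 3.02 in Pcgf3KO and 3.02 in WT, so all groups overlapped. It shares 393 bases with 4933431E20Rik on the other strand, and the library kit did not mark strand, so reads there cannot be assigned to either gene. Of the stretches of 50 bases, 23.1% for Gstm1, 9.36% for Gstm2 and 14.4% for Gstm5 occur in other genes.

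Of 8 tested neighbours of the mu class genes, edgeR and DESeq2 each called 0 in each knockout against WT. Of all genes, edgeR called 3.22% in DKO, 2.99% in Pcgf5KO and 2.36% in Pcgf3KO. In each knockout 2 of the 8 had an unadjusted p under 0.05. The 8 include the paralogs Gstm3, Gstm4, Gstm6 and Gstm7. Gstm3 had 4.16 and 8.16 CPM in DKO, 7.81 and 7.68 in Pcgf5KO, 8.36 and 9.23 in Pcgf3KO and 3.64 in WT. WT was lowest and DKO replicate 1 was close to it. The log2 difference was 0.76 ± 0.36 in DKO (adjusted p = 0.29, edgeR), 1.09 ± 0.37 in Pcgf5KO (adjusted p = 0.155, edgeR) and 1.27 ± 0.36 in Pcgf3KO (adjusted p = 0.111, edgeR). Gstm7 had values of the other sign, −0.72 ± 0.24 in DKO (adjusted p = 0.158, edgeR), −0.78 ± 0.25 in Pcgf5KO (adjusted p = 0.137, edgeR) and −0.85 ± 0.24 in Pcgf3KO (adjusted p = 0.116, edgeR). None of these passed.

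Gsto1 (chromosome 19, 47854970 to 47864790, mm10) is an omega class enzyme that reduces dehydroascorbate and methylated arsenic. It had 158 and 253 CPM in DKO, 177 and 178 in Pcgf5KO, 169.7 and 173 in Pcgf3KO and 295 in WT. WT was highest, the single knockouts were low and tight, and the DKO libraries lay on both sides of them. Against WT the log2 values were −0.52 ± 0.20 in DKO, −0.73 ± 0.20 in Pcgf5KO and −0.78 ± 0.20 in Pcgf3KO, with no call. Between the knockouts it stood at 0.21 ± 0.17 in DKO against Pcgf5KO and 0.26 ± 0.17 against Pcgf3KO, also with no call. Gsto1 lies wholly within Cfap43 on the other strand, which had between 187 and 364 counts per library, against between 2197 and 5174 for Gsto1.

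The remaining genes were rare. Gstt1, a theta class enzyme that acts on small halogenated compounds, had 4.16 and 4.79 CPM in DKO, 3.61 and 4.37 in Pcgf5KO, 3.58 and 3.64 in Pcgf3KO and 4.04 in WT. Its DKO libraries lay above those of Pcgf3KO and overlapped with Pcgf5KO. Gstk1, the kappa class enzyme of mitochondria and peroxisomes, had 2.27 and 3.66 CPM in DKO, 3.31 and 3.07 in Pcgf5KO, 2.87 and 3.08 in Pcgf3KO and 3.36 in WT, and the DKO libraries were the lowest and the highest of all 7. Among the comparisons of 2 groups the largest log2 difference of either gene was 0.31 ± 0.20, for Gstt1 in DKO against Pcgf3KO, which was not called. Mgst1, the microsomal MAPEG enzyme of the endoplasmic reticulum and outer mitochondrial membrane, is the 1 gene with both WT libraries. It had 38 and 31 counts in DKO, 26 and 26 in Pcgf5KO, 32 and 11 in Pcgf3KO and 31 and 36 in WT. Only Pcgf3KO replicate 2 stood apart. In the fit of all 8 libraries on the genes listed in each, its log2 fold change against WT was −0.03 ± 0.40 in DKO, −0.01 ± 0.41 in Pcgf5KO and −0.67 ± 0.43 in Pcgf3KO, none called.

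Over the 10 genes the median log2 fold change was 0.04 in DKO, 0.09 in Pcgf5KO and 0.06 in Pcgf3KO against WT, beside medians over all tested genes of 0.01 in DKO, 0.0050 in Pcgf5KO and 0.0024 in Pcgf3KO.

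Of 22 further glutathione transferase and MAPEG genes, 20 were in the tables and 13 passed the filter. Among these 13, edgeR called 0 in any knockout against WT, with 3 in each at an unadjusted p under 0.05. Of all genes, edgeR called 3.22% in DKO, 2.99% in Pcgf5KO and 2.36% in Pcgf3KO. DESeq2 called 0 of the 10 for which it gave an adjusted p. The 1 gene called between knockouts was Ptges, a MAPEG enzyme of prostaglandin E2 synthesis. Ptges had 8.12 and 11.5 CPM in DKO, 4.08 and 4.53 in Pcgf5KO, 4.74 and 3.52 in Pcgf3KO and 5.87 in WT. Both DKO libraries lay above all others. It rose in DKO by 1.20 ± 0.23 on the log2 scale against Pcgf5KO (adjusted p = 0.0381, edgeR) and by 1.25 ± 0.22 against Pcgf3KO (adjusted p = 0.0292, edgeR), opposite to Gstp1 and Gstp2. No gene of the 13 was called when any Pcgf5KO or Pcgf3KO library was left out, where calls over all genes also fell in every comparison. Without DKO replicate 1, where 16.2% of all genes were called in DKO, 26.8% in Pcgf5KO and 20.6% in Pcgf3KO against WT, 4 rose in DKO, 4 rose and 1 fell in Pcgf5KO, and 2 rose and 1 fell in Pcgf3KO. Without DKO replicate 2, where these shares were 34.5% in DKO, 26.4% in Pcgf5KO and 20.2% in Pcgf3KO, 2 fell in DKO, 3 rose and 1 fell in Pcgf5KO, and 2 rose and 1 fell in Pcgf3KO. In DKO against Pcgf5KO, 2 rose and 1 fell without DKO replicate 1 (16% of all genes called), and 1 rose and 6 fell without DKO replicate 2 (42.3%). In DKO against Pcgf3KO, 1 rose without DKO replicate 1 (12.6%), and 1 rose and 3 fell without DKO replicate 2 (35.8%).

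Of the genes that make, recycle or use glutathione, 25 were tested. Against WT, 0 rose and 1 fell in DKO, 1 rose and 1 fell in Pcgf5KO, and 0 rose and 1 fell in Pcgf3KO, beside the 3.22% of all genes called in DKO, 2.99% in Pcgf5KO and 2.36% in Pcgf3KO. Gpx1, the cytosolic glutathione peroxidase, fell by 0.68 ± 0.13 in DKO (adjusted p = 0.0279, edgeR). Gclm, the modifier subunit of the rate-limiting enzyme of glutathione synthesis, rose by 0.49 ± 0.11 in Pcgf5KO (adjusted p = 0.0467, edgeR). Gpx3, the secreted peroxidase, fell by 0.74 ± 0.13 in Pcgf5KO (adjusted p = 0.0256, edgeR) and by 0.83 ± 0.13 in Pcgf3KO (adjusted p = 0.0147, edgeR). Medians over the 25 were −0.12 in DKO, 0.04 in Pcgf5KO and −0.04 in Pcgf3KO. In the fit of all 8 libraries, which has both WT libraries but holds only 5 of the 25, Ggt1, which cleaves extracellular glutathione, was higher in DKO by 0.79 ± 0.21 (adjusted p = 0.0398, edgeR), where 8.11% of the genes in that fit were called. In the same fit Gpx4, the peroxidase of membrane lipid hydroperoxides, was higher in Pcgf5KO by 0.40 ± 0.09 (adjusted p = 0.0258, edgeR), where 8.62% were called. When either DKO replicate was left out, 9 rose and 3 fell in Pcgf5KO and 7 rose and 2 fell in Pcgf3KO, while in DKO 3 rose and 5 fell without replicate 1, and 1 rose and 9 fell without replicate 2. Those fits called 16.2% of all genes in DKO, 26.8% in Pcgf5KO and 20.6% in Pcgf3KO without replicate 1, and 34.5% in DKO, 26.4% in Pcgf5KO and 20.2% in Pcgf3KO without replicate 2. No gene of the 25 was called when any 1 Pcgf5KO or Pcgf3KO library was left out, where calls over all genes also fell in every comparison.

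In DKO against each single knockout, 3 of the 25 fell and 0 rose, where 2.28% of all genes were called against Pcgf5KO and 1.74% against Pcgf3KO. They were Gpx1, Gpx4 and Esd in both contrasts, and all 3 calls were lost in both without any 1 Pcgf5KO or Pcgf3KO library. Gpx1 had 110 and 143 CPM in DKO, 199 and 198 in Pcgf5KO, 189 and 192 in Pcgf3KO and 203 in WT. Gpx4 had 186 and 227 CPM in DKO, 327 and 318 in Pcgf5KO, 288 and 300.1 in Pcgf3KO and 234 in WT. Both DKO libraries were the lowest for each gene. Gpx4 fell by 0.64 ± 0.10 against Pcgf5KO (adjusted p = 0.0192, edgeR) and by 0.51 ± 0.09 against Pcgf3KO (adjusted p = 0.0327, edgeR). Gpx1 fell by 0.65 ± 0.11 against Pcgf5KO (adjusted p = 0.0274, edgeR) and by 0.59 ± 0.11 against Pcgf3KO (adjusted p = 0.0329, edgeR). Esd, which hydrolyses S-formylglutathione, fell by 0.43 ± 0.09 against Pcgf5KO (adjusted p = 0.0419, edgeR) and by 0.54 ± 0.09 against Pcgf3KO (adjusted p = 0.0185, edgeR). Without DKO replicate 1, 2 rose and 5 fell against Pcgf5KO and 3 rose and 5 fell against Pcgf3KO, where 16% of all genes were called against Pcgf5KO and 12.6% against Pcgf3KO. Without DKO replicate 2, 1 rose and 11 fell against Pcgf5KO and 2 rose and 13 fell against Pcgf3KO, where the shares were 42.3% against Pcgf5KO and 35.8% against Pcgf3KO.

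NRF2, encoded by Nfe2l2, and its regulators and other targets gave 22 tested genes. Against WT, 0 were called with edgeR in any knockout, beside 3.22% of all genes in DKO, 2.99% in Pcgf5KO and 2.36% in Pcgf3KO. At an unadjusted p under 0.05 were 4 in DKO, 6 in Pcgf5KO and 4 in Pcgf3KO. DESeq2 called 0 in DKO, 2 in Pcgf5KO and 0 in Pcgf3KO. Of all genes it called 3.29% in DKO, 3.18% in Pcgf5KO and 2.51% in Pcgf3KO. In the fit of all 8 libraries, which holds 4 of the 22, Cbr3, a carbonyl reductase, was higher in Pcgf5KO by 0.96 ± 0.21 (adjusted p = 0.0216, edgeR), where 8.62% of the genes in that fit were called. Of the 22, 8 had values above 0 in DKO, 19 in Pcgf5KO and 18 in Pcgf3KO. When either DKO replicate was left out, 12 rose and 1 fell in Pcgf5KO and 9 rose in Pcgf3KO, while in DKO 5 rose and 1 fell without replicate 1, and 2 rose and 12 fell without replicate 2, beside the shares of all genes given above for these fits. In DKO against Pcgf5KO, 4 fell and 0 rose, where 2.28% of all genes were called, with a median of −0.24 over the 22 beside 0.02 over all genes. Nqo1, a quinone reductase, had 52.6 and 77.9 CPM in DKO, 130.3 and 115 in Pcgf5KO, 101 and 106 in Pcgf3KO and 74.7 in WT. Its DKO libraries lay below both single knockouts and on both sides of WT. It fell by 0.91 ± 0.16 in DKO against Pcgf5KO (adjusted p = 0.0279, edgeR).

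The other 3 genes of this list that fell in DKO against Pcgf5KO were Pgd and G6pdx, which make NADPH in the pentose phosphate pathway, and Txn1, thioredoxin. Pgd fell by 0.69 ± 0.11 (adjusted p = 0.0228, edgeR), G6pdx by 0.61 ± 0.13 (adjusted p = 0.0466, edgeR) and Txn1 by 0.33 ± 0.07 (adjusted p = 0.0465, edgeR). In DKO against Pcgf3KO edgeR called 0 of the 22, with 11 at an unadjusted p under 0.05, and DESeq2 called 3. Of all genes, edgeR called 1.74% there and DESeq2 2.37%. These counts changed when 1 library was left out. Against Pcgf5KO, 1 rose and 8 fell without DKO replicate 1 (16% of all genes called), and 1 rose and 16 fell without DKO replicate 2 (42.3%). Against Pcgf3KO, 2 rose and 7 fell without DKO replicate 1 (12.6%), and 1 rose and 17 fell without DKO replicate 2 (35.8%). Without any 1 Pcgf5KO or Pcgf3KO library 0 were called in either contrast, where the share of all genes was at most 0.326%.

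Feeder RNA is a possible part of every library. The summed level of 25 fibroblast markers was 164 and 203 CPM in DKO, 177 and 181 in Pcgf5KO, 139 and 152 in Pcgf3KO and 247.5 in WT, so WT was highest. Of 21 tested markers, 0 rose and 5 fell in DKO, 0 rose and 1 fell in Pcgf5KO, and 0 rose and 5 fell in Pcgf3KO against WT, where 3.22% of all genes were called in DKO, 2.99% in Pcgf5KO and 2.36% in Pcgf3KO. In DKO, 2 rose and 3 fell against Pcgf5KO, and 5 rose and 2 fell against Pcgf3KO, where 2.28% of all genes were called against Pcgf5KO and 1.74% against Pcgf3KO. The 5 defining markers, Col1a1, Col1a2, Col3a1, Thy1 and Postn, summed to between 30.4 and 42.3 CPM in DKO, between 29.8 and 30.8 in Pcgf5KO, between 20.7 and 24.3 in Pcgf3KO and 43.4 in WT. Much of this sum was Thy1, which other cells also make, at 22.1 and 33.3 CPM in DKO, 17.8 and 16.1 in Pcgf5KO, 12.6 and 14.3 in Pcgf3KO and 19.8 in WT. The collagen gene Col1a1 had 5.32 and 6.92 CPM in DKO, 7.34 and 7.93 in Pcgf5KO, 5.19 and 6.60 in Pcgf3KO and 16.2 in WT. In DKO against WT, Col1a1 fell by 1.40 ± 0.21 (adjusted p = 0.0098, edgeR) and Col1a2 by 1.72 ± 0.27 (adjusted p = 0.0104, edgeR). Postn was at 0 in 2 libraries, DKO replicate 1 and Pcgf3KO replicate 1. Gstp1 and Gstp2 were highest in Pcgf3KO and lowest in WT, while both sums were lowest in Pcgf3KO and highest in WT. The sums of DKO and Pcgf5KO overlapped, whereas Gstp1 and Gstp2 were lower in both DKO libraries than in both Pcgf5KO libraries. Gsto1 was highest in WT, as both sums were. Not every marker followed the sums, since Thy1 was higher in both DKO libraries than in WT while Col1a1 was lower. The part of the markers in these results was not tested.

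The pattern of Gstp2 over the libraries was compared with that of 11022 genes, by the root mean square difference of log2 CPM centred on each gene's mean over the 7 libraries. The nearest were Ptprtos at 0.41, Myo1g at 0.43, C78283 at 0.44, Krt42 at 0.50 and Sept1 at 0.51, against a median of 1.06 over all genes and 0.62 for Gstp1. Krt42 encodes a type I keratin, Myo1g an unconventional myosin of blood cells and Sept1 a septin. Ptprtos had 8.43 and 10.1 CPM in DKO, 12.4 and 13.5 in Pcgf5KO, 17.4 and 16.2 in Pcgf3KO and 3.36 in WT. Like Gstp2 it was lowest in WT and highest in Pcgf3KO, with no overlap between groups. All points share the same 7 libraries and the same scaling.

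**Figure D5:**
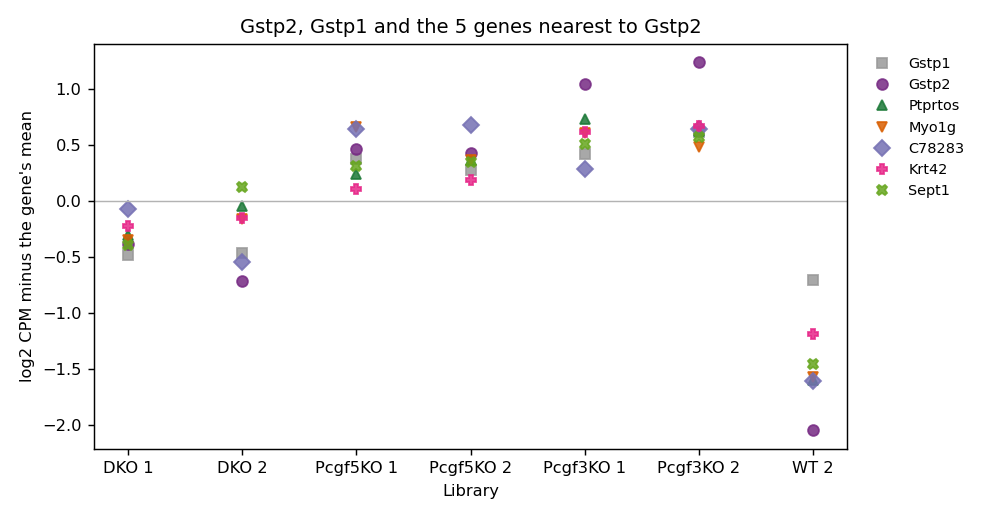
Log2 CPM minus the gene's mean over 7 libraries, for Gstp1, Gstp2 and the 5 genes nearest to Gstp2. All 7 genes are lowest in WT and higher in the single knockout than in the DKO libraries.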

How the data were processed

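The 8 mouse ES cell samples gave poly-A libraries prepared with a NEBNext Ultra kit, per the labels' protocols. For each library the authors deposited a table of whole-number read counts by Ensembl identifier, per the file headers. The submitters' processing notes name HTSeq 0.6.0, TopHat2 2.0.12, Cufflinks 2.2.1 and mm10. Which annotation release, strand setting or filter was applied is not given in the sources used here. For WT replicate 1, the table in hand stops in mid-line after 8093 of 47069 genes, and genes after that point were treated as not measured. Symbols came from GENCODE M21 and matched 46488 identifiers.

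From the counts, 1 fit by group was made with edgeR 4.0.16 in R 4.3.3 (TMM, filterByExpr, glmQLFit, glmQLFTest) over the 7 libraries that list all genes, with 15669 genes and 3 residual degrees of freedom. The lone WT library is assumed to vary like the others. Every adjusted p is over all of these genes. CPM are counts scaled to the effective library size. Alternatives were DESeq2 1.42.0, its size factors, no filter, a block for replicate number, all 8 libraries, leaving out each library, and Gstp1 and Gstp2 added together. The procedure was tested on simulated data.

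The 10 genes, the lists and the rules for genes to name were chosen with earlier results of these data known. Named genes are the 10, tested members of the glutathione transferase list, up to 4 genes with the smallest p of each other list and comparison, tested genes within 100 kb of the clusters, and the 5 genes nearest to Gstp2. A gene that these rules give is not reported here by name, but counts include it.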

Additional observations from a re-analysis of the deposited data

Results flagged for a closer look

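For 3 of the 10 genes the interaction term of the edgeR fit was called, where 3.79% of all tested genes were called. In these 3 the DKO change lay below the sum of the single changes. The difference (DKO change minus the sum of the Pcgf5KO and Pcgf3KO changes, log2 scale) was −4.28 for Gstp2, −2.03 for Gstp1 and −0.71 for Gsta4. These contrasts share the single WT library and were in view when the genes were listed, so the calls are a description. The Gstp1 and Gstp2 calls were present in each of the 6 fits that left out 1 knockout library. The Gsta4 call was present in 2 of them, those without a DKO replicate, where 24.1% (without replicate 1) and 36.7% (without replicate 2) of all genes were called.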

How the results depend on the processing

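For the 10 genes, DESeq2, its size factors and the replicate block gave counts of called genes within 1.5 times those reported in all 7 comparisons. DESeq2 called 3 in DKO against Pcgf5KO, where it called 5.13% of all genes. It gave no adjusted p for 4 of the 10 there. Its shares of all genes in the other comparisons lay between 0.504% and 4.15%. With its size factors in edgeR the shares lay between 0.153% and 3.85%. The replicate block gave 3 in Pcgf5KO against WT, 3 in DKO against Pcgf5KO and 4 in the interaction. With the block, 4.39% of all genes were called in Pcgf5KO against WT and 9.78% in DKO against Pcgf5KO. The shares were 3.18% in DKO against Pcgf3KO and 8.33% in the interaction. Deviations from the group means correlated at 0.25 between DKO and Pcgf3KO, 0.0834 between DKO and Pcgf5KO and −0.0421 between Pcgf5KO and Pcgf3KO. WT, with 1 full library, gave no such value. Whether the replicate numbers pair the libraries cannot be decided from these values. Over all genes the count called in DKO against Pcgf5KO was 357 in the fit reported, 1532 with the block and 804 with DESeq2. Of the NRF2 list, 8 were called in DKO against Pcgf5KO with the block and 4 without it, 4 and 0 in DKO against Pcgf3KO, 3 and 0 in Pcgf5KO against WT, and 9 and 4 in the interaction. Of the glutathione list, 5 were called with the block and 3 without it in DKO against Pcgf5KO, and 7 and 4 in the interaction. With no filter on low counts, 2 of the 10 genes were called in DKO against WT, 4 in Pcgf5KO against WT, 4 in Pcgf3KO against WT and 1 in Pcgf5KO against Pcgf3KO. The shares of all genes there were 5.79% in DKO, 4.8% in Pcgf5KO and 4.34% in Pcgf3KO against WT. In Pcgf5KO against Pcgf3KO the share was 0.879%. Leaving out 1 library gave between 0 and 3 genes in DKO against WT, between 1 and 4 in Pcgf5KO against WT, between 2 and 4 in Pcgf3KO against WT, between 0 and 5 in DKO against Pcgf5KO and against Pcgf3KO, between 0 and 1 in Pcgf5KO against Pcgf3KO, and between 2 and 6 in the interaction. The share of all genes called moved in these fits too. In every comparison it rose without either DKO library, to the shares given above. It fell in every comparison without any 1 Pcgf5KO or Pcgf3KO library. These ranges are therefore not read as particular to the 10 genes. WT replicate 2 could not be left out of contrasts with WT, and the fit of all 8 libraries covers only Mgst1, so neither gives a count there. The cause of these shifts was not tested.

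Log2 values that turned sign were all of genes not called in the fit reported. In DKO against WT the ranges were −0.09 to 0.18 for Gsta4, −0.02 to 0.32 for Gstm1 and −0.11 to 0.01 for Gstm2. They were −0.22 to 0.24 for Gstm5 and −0.56 to 0.12 for Gstk1. In Pcgf5KO they were −0.22 to 0.23 for Gstm5, −0.16 to 0.11 for Gstt1 and −0.41 to 0.04 for Mgst1. Signs also turned for Gstm5 in Pcgf3KO, and for Gstm1, Gstm5 and Gstk1 in the interaction. In DKO against Pcgf5KO, leaving out a library gave ranges of −0.16 to 0.18 for Gstm1, −0.27 to 0.25 for Gstm5, −0.16 to 0.51 for Gsto1, −0.50 to 0.19 for Gstk1 and −0.25 to 0.20 for Mgst1. In DKO against Pcgf3KO the ranges were −0.19 to 0.15 for Gstm1, −0.19 to 0.27 for Gstm5, −0.11 to 0.56 for Gsto1 and −0.39 to 0.30 for Gstk1, which was at 0.00048 with the size factors of DESeq2. In Pcgf5KO against Pcgf3KO they were −0.077 to 0.011 for Gstm1 and −0.19 to 0.27 for Gstm5. With 1 WT library and 26 Gstp2 counts in it, the depth of WT limits each fold change against it.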
